A study of Mus musculus with 6 samples.

Results

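The genes followed here belong to the piRNA pathway: Piwil2, Tdrd1, Tdrd5, Tdrd9, Ddx4, Mov10l1, Mael, Asz1, Pld6 and Tex19.1. They were taken by name as genes of the pathway, with earlier results of these data known, and are 10 of 21670 protein-coding genes with an annotated start on chromosomes 1 to 19 and X. Their CpG methylation was read from whole-genome bisulfite sequencing of 6 libraries of wild-type mouse pluripotent stem cells of the strain 129S2/SvPasCrl, which the study describes as female. Advanced pluripotent stem cells (ASCs) are blastocyst-derived lines kept in the medium ABCL, embryonic stem cells (ESCs) were grown in 2i/LIF and stand for the naive state of the blastocyst, and epiblast stem cells (EpiSCs) stand for the primed state reached once the embryo has implanted. Each group had 2 libraries, named in the labels as replicates 1 and 2, and every group is cells in culture, for which the labels name no further treatment or allele. According to the study's methods, ASC lines were obtained from blastocyst-derived cells with a GOF-GFP reporter transgene and from fathers of mixed strain background, and it is not stated which lines were sequenced here. The methods call the replicates biological but do not say whether those of a group came from different lines, so the p-values below measure only the spread between these libraries.

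Piwi-interacting RNAs (piRNAs) are small RNAs of the germline that guide PIWI proteins to transposon transcripts and, in fetal male germ cells, to transposon loci that are then methylated. The pathway works in perinuclear and intermitochondrial granules called nuage, where Tudor proteins bind methylated arginines of PIWI proteins, RNA helicases unwind precursors, and enzymes on the mitochondrial surface cut them. Many germline genes have CpG-rich promoters that are methylated as the embryo implants and stay silent in somatic cells, and several piRNA genes are among those known to be controlled in this way.

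The level of a region is the share of its CpG reads that were methylated. A read at a CpG is called an observation, and observations on the same read are not independent. Limits given for a level of 0 cover counting error only. They treat observations as independent, so the true limits are higher where a read spans several CpGs. The regions read for each gene were the promoter, reaching from 1000 bp upstream to 100 bp downstream of the start, the start window, 500 bp on each side, and the gene body, which runs from the end of the start window to the end of the gene. All 10 genes had at least 40 observations in every library in all these regions. A difference was called where the adjusted p of a limma-moderated quasi-binomial model was under 0.05 and the means of the groups were 20 percentage points or more apart. The libraries held between 63803799 and 74925271 CpG reads, with a mean coverage per listed CpG between 3.03 and 3.55, and EpiSC replicate 2 was the shallowest. Over all CpGs of chromosomes 1 to 19 and X, the methylated share was 59.8% and 60.2% for the ASC libraries, 17.9% and 18.2% for ESCs and 81.0% and 80.2% for EpiSCs. No RNA was analysed here, so the cell labels were checked only against these totals.

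A choice of 5 promoters shows the range of behaviour among the 10 genes: Mael and Ddx4 were low in ASCs, Mov10l1 was intermediate, Asz1 was high, and Tdrd5 was low in every group. The sequences are those of RefSeq on build GRCm38.p6, from 250 bases before to 50 bases after its start site, so they cover the proximal promoter and the first transcribed bases. They are written 5′ to 3′ on the strand of the gene, with every CpG in capitals, the only sites that the levels below count. RefSeq promoters were matched for 9 of the 10 genes by symbol. The Mael window lies at chr1:166238695-166238994 (minus strand), the Ddx4 window at chr13:112652261-112652560 (minus), the Mov10l1 window at chr15:88982744-88983043 (plus) and the Asz1 window at chr6:18109012-18109311 (minus). The Tdrd5 window lies at chr1:156303299-156303598 (minus). Its RefSeq start is 316 bases downstream of the start used for the regions, whereas those of the other 4 genes lie within 9 bases of the start used. The printed Tdrd5 window thus begins 66 bases after the start used and lies mostly outside the promoter region read below.
Mael: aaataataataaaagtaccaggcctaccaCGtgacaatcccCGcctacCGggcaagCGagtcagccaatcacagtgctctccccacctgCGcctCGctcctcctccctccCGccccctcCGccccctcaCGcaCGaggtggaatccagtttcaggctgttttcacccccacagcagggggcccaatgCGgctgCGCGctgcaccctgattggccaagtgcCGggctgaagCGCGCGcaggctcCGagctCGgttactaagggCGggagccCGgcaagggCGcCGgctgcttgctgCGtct
Ddx4: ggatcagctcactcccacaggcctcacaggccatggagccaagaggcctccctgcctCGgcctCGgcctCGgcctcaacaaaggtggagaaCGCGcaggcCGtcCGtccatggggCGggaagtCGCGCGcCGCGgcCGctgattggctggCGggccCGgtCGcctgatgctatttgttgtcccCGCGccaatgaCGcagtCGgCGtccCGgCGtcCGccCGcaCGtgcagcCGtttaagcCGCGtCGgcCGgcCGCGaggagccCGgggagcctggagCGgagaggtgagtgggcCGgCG
Mov10l1: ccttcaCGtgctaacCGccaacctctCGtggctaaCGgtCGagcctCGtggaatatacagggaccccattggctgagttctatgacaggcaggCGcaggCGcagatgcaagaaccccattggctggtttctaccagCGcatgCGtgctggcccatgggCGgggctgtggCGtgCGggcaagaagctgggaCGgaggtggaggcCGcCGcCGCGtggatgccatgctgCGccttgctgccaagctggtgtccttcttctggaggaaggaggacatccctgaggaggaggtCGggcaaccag
Asz1: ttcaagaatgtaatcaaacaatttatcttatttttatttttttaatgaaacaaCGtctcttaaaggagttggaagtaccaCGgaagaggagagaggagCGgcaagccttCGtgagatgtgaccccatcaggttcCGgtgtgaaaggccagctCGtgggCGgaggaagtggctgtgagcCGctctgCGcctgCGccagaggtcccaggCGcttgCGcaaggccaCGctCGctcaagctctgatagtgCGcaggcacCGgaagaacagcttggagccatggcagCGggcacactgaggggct
Tdrd5: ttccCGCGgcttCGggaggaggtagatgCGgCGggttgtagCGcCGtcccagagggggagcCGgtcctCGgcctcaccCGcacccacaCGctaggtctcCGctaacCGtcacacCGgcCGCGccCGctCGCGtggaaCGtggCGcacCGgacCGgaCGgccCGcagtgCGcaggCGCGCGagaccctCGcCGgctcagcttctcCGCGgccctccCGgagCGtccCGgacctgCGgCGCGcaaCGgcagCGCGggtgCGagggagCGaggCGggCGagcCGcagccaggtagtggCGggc

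The 300 bases of Mael hold 24 CpGs, of which 11.1% and 19.8% of observations were methylated in ASCs. The ESC libraries had 1.03% and 10.99%, and the EpiSC libraries 97.5% and 100%. At each of the 13 CpGs with at least 5 reads in every group, all EpiSC reads were methylated, while the highest level at any of them was 33.3% in ASCs and 28.6% in ESCs. Toward the upstream end, 3 CpGs between -208 and -193 from the start each had 5 of 6 reads methylated in ASCs (83.3%) and are not among the 13, since EpiSCs had 2 or 3 reads there. The Ddx4 window holds 38 CpGs and had 8.22% and 6.06% in ASCs, 2.38% and 6.18% in ESCs, and 100% in both EpiSC libraries, the second of which rests on 22 observations. Its CpGs from -49 to -4 had no EpiSC read, so the EpiSC level does not cover them. In these 300 bases both genes were thus closer to the ESC than to the EpiSC libraries in ASCs.

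The Mov10l1 window, with 20 CpGs, had 27.2% and 26.4% in ASCs, compared with 12.3% and 11.8% in ESCs and 89.5% and 95.1% in EpiSCs. All 20 CpGs had at least 5 reads in every group, and their ASC levels ranged from 0% to 72.7%, with 4 of them at 50% or more. The Asz1 window, with 17 CpGs, had 76.0% and 71.9% in ASCs, compared with 9.04% and 11.5% in ESCs and 91.9% and 90.3% in EpiSCs. Of its 13 CpGs with 5 reads in every group, 12 were at 50% or more in ASCs. The Tdrd5 window is the most CpG-dense of the 5, with 48 CpGs. None of its 89 and 92 ASC observations was methylated, which allows up to 3.37% and 3.26%, and the ESC and EpiSC libraries were between 0% and 1.81%, the 0 resting on 340 observations in EpiSC replicate 1 and allowing up to 0.882%. Each of its CpGs had 5 or fewer ASC reads with the libraries pooled, so the ASC observations come from few reads and these limits are too low. In bulk DNA an intermediate level in a region can come from CpGs of unlike level along it, and how far this made the Mov10l1 level was not tested. It can also come from a mixture of methylated and unmethylated copies or from cells that differ, and these cannot be told apart.

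**Figure D1:**
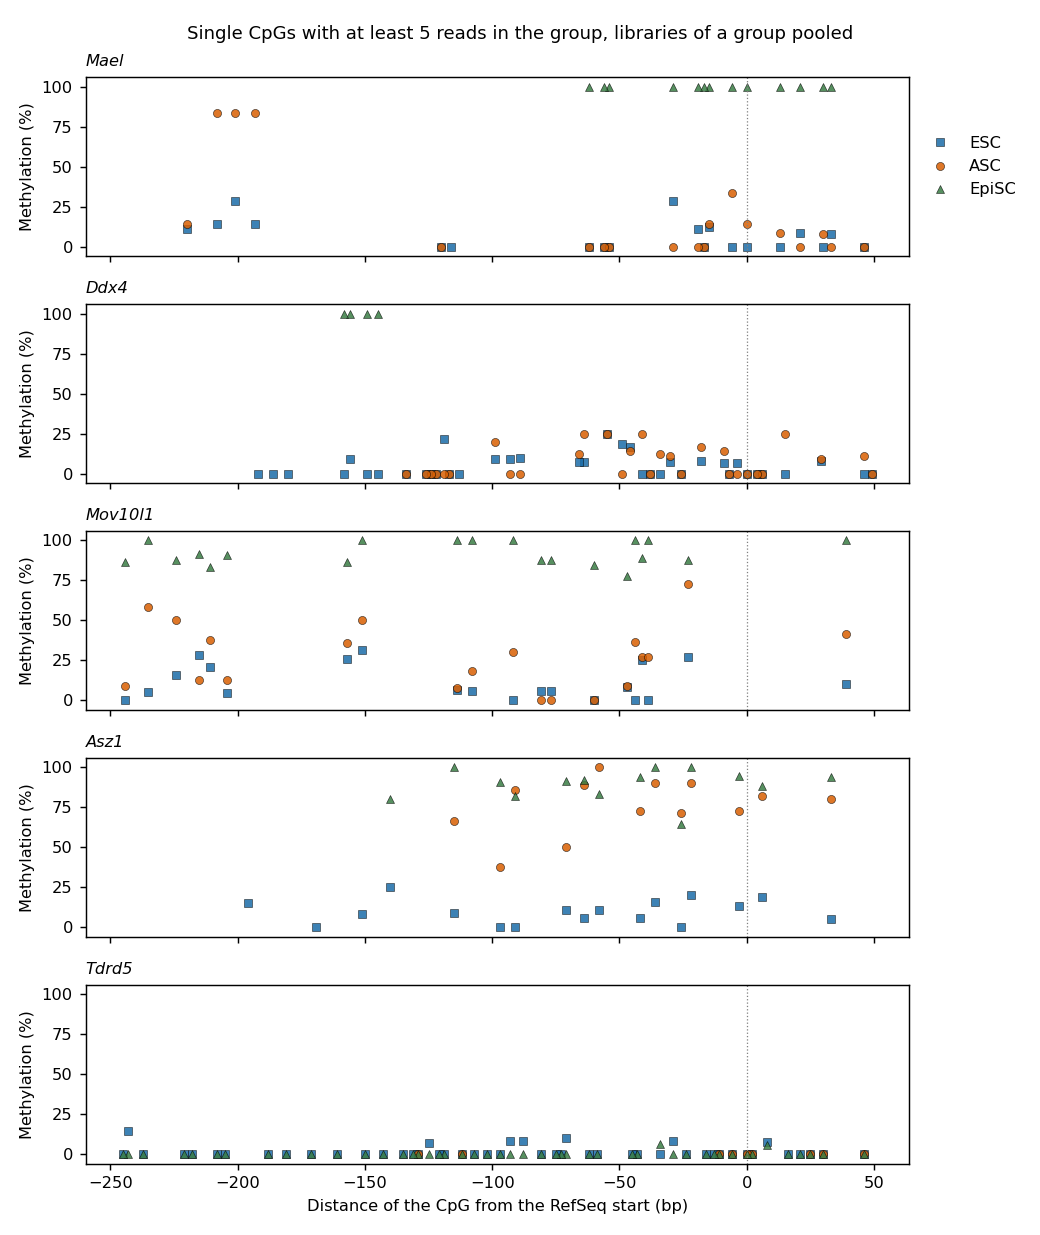
Methylation of single CpGs in the 5 promoters printed above, against the distance of the CpG from the RefSeq start in bp. Each point is 1 CpG in 1 group, the reads of its 2 libraries pooled, shown where the group had at least 5 reads, in ASCs (circles), ESCs (squares) and EpiSCs (triangles). Most ASC points lie near the ESC points in Mael and Ddx4, with a few high ones at the upstream end of Mael, between the groups in Mov10l1 and near the EpiSC points in Asz1, and all groups lie near 0 in Tdrd5.

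The main question was whether the promoters of these genes followed the genome of ASCs, which is far more methylated than that of ESCs, or were low as in ESCs. Whether a low ASC level was kept throughout the derivation or arose later was not tested. In the comparison of ASCs with EpiSCs, 7 of the 10 promoters were lower in ASCs (Piwil2, Tdrd1, Tdrd9, Ddx4, Mov10l1, Mael and Tex19.1), where 24.3% of all 14429 promoters tested were called lower. None was higher. The median difference over the 10 genes was -55.7 percentage points, against -6.70 over all promoters tested. In the comparison of ASCs with ESCs, 4 promoters were higher in ASCs (Asz1, Tdrd9, Mov10l1 and Tex19.1), where 17.3% of all promoters were called higher. In EpiSCs, 9 promoters were higher than in ESCs, all but that of Tdrd5, where 37.0% of all promoters were. Most promoters in the genome are low in every group, with medians over all promoters of 14.0% in EpiSCs and 1.54% in ESCs, whereas the medians over the 10 genes were 93.5% and 8.45%. The study itself names Mael among genes with a demethylated promoter in ASCs, from these same samples, so its direction is not independent evidence.

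Piwil2 is the PIWI protein of the set, which binds piRNAs and takes part in their amplification. Its promoter was at 13.7% and 15.4% in the ASC libraries, 7.02% and 9.23% in the ESC libraries and 94.3% and 91.4% in the EpiSC libraries. The ASC libraries lay 78.3 points below the EpiSC libraries on average (adjusted p = 7.14e-07). The difference from ESCs was 6.41 points and did not pass (adjusted p = 0.243). Piwil2 had the lowest ASC level of the promoters that were methylated in EpiSCs.

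Among the Tudor proteins, which assemble nuage around PIWI proteins, Tdrd1 was at 24.2% and 25% in ASCs against 8.74% and 11.4% in ESCs and 94.2% and 99.3% in EpiSCs. Its ASC level was 72.1 points below EpiSCs (adjusted p = 2.89e-06). It was 14.5 points above ESCs, under the 20 points asked for, with an adjusted p of 0.0441. A later annotated start of Tdrd1, 4503 bp downstream, had 64.8% and 69.6% in ASCs within 500 bp on each side, so the low level was at the first of these starts.

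Tdrd5, a Tudor and LOTUS domain protein needed for nuage, had an unmethylated start in all groups. Its start window was at 0% and 0.694% in ASCs, compared with 0.505% and 1.73% in ESCs and 1.34% and 2.84% in EpiSCs, and the 0 of ASC replicate 1 allows up to 2.42%. The promoter reaches further upstream and had 11.9% and 11.5% in ASCs, compared with 1.09% and 4.35% in ESCs and 9.47% and 16.1% in EpiSCs. Of the 10 genes it alone was called in no comparison of the promoter or the start window. The annotated antisense transcript 4930518J20Rik overlaps this promoter region, so the CpGs there belong to both genes.

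Tdrd9 joins a Tudor domain to an RNA helicase. Its promoter was at 71.6% in both ASC libraries, 11.3% and 22.6% in ESCs, and 96.8% and 89.3% in EpiSCs. It was 54.7 points above ESCs (adjusted p = 3.94e-04) and 21.5 points below EpiSCs (adjusted p = 0.00586). The call against EpiSCs was lost in 6 of 14 alternatives, among them without EpiSC replicate 1, where the difference was -17.7 points, and without either ASC library. In the start window the difference from EpiSCs was -19.9 points and was not called.

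Ddx4, the germ cell helicase also known as mouse vasa homologue, was at 23.8% and 15.1% in the ASC libraries, 6.18% and 6.33% in the ESC libraries and 97.8% and 100% in the EpiSC libraries. The promoter was 79.5 points lower in ASCs than in EpiSCs (adjusted p = 1.94e-06), the largest difference of the 10. It was 13.2 points above ESCs with an adjusted p of 0.00269, below the size asked for. Read from its 5′-most annotated start, the Ddx4 promoter was 23.3 points above ESCs and was called. Mov10l1, the helicase that binds piRNA precursors, was at 39.8% and 48.3% in ASCs against 16.6% and 17.4% in ESCs and 92.2% and 95.6% in EpiSCs. It differed from both other groups, by 27.1 points from ESCs (adjusted p = 3.15e-04) and by -49.8 points from EpiSCs (adjusted p = 2.92e-06). Another annotated Mov10l1 start, 40619 bp downstream, had 73.2% and 77.1% in ASCs.

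Mael, a nuage protein needed for transposon silencing, was at 25.8% and 24.6% in ASCs, compared with 5.70% and 11.8% in ESCs and 97.1% and 99.4% in EpiSCs. Its ASC libraries were 73.1 points below EpiSCs (adjusted p = 1.00e-06) and 16.4 points above ESCs (adjusted p = 0.00426). Tex19.1, a mammal-specific germline protein that limits retrotransposons, was at 38.5% and 29.7% in the ASC libraries, 5.63% and 2.44% in the ESC libraries and 96.6% and 94.5% in the EpiSC libraries. It was 61.5 points below EpiSCs (adjusted p = 3.20e-06) and 30.04 points above ESCs (adjusted p = 2.24e-04). In these genes both ASC libraries lay between those of the other groups with no overlap.

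The remaining members act at mitochondria. Asz1, a mitochondria-anchored ankyrin-repeat protein of nuage, was at 73.7% and 70.2% in ASCs against 12.6% and 15.8% in ESCs and 92.4% and 91.2% in EpiSCs. It was 57.8 points above ESCs (adjusted p = 4.49e-05), the largest ASC increase of the 10. It was 19.9 points below EpiSCs with an adjusted p of 0.00173, just under the size asked for, and it was called in 2 of 14 alternatives. Pld6, the mitochondrial enzyme that cuts piRNA precursors, had the widest spread between ASC libraries, 10.9% and 28.6%, with 9.26% and 1.54% in ESCs and 32.8% and 32.9% in EpiSCs. The ASC libraries also differed in which CpGs were read. From -200 to -1 they had 63 and 14 observations (1.59% and 0%), and from -800 to -601 they had 10 and 22 (70% and 77.3%). How far this made the spread was not tested. The Pld6 promoter was called only between EpiSCs and ESCs, by 27.5 points (adjusted p = 7.88e-04). Single libraries decided the Pld6 promoter calls. This one was lost without EpiSC replicate 1 (27.5 points, adjusted p = 0.05001), ASCs were called above ESCs without ASC replicate 1 (23.2 points), and they were called below EpiSCs without ASC replicate 2 (-21.9 points).

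**Figure D2:**
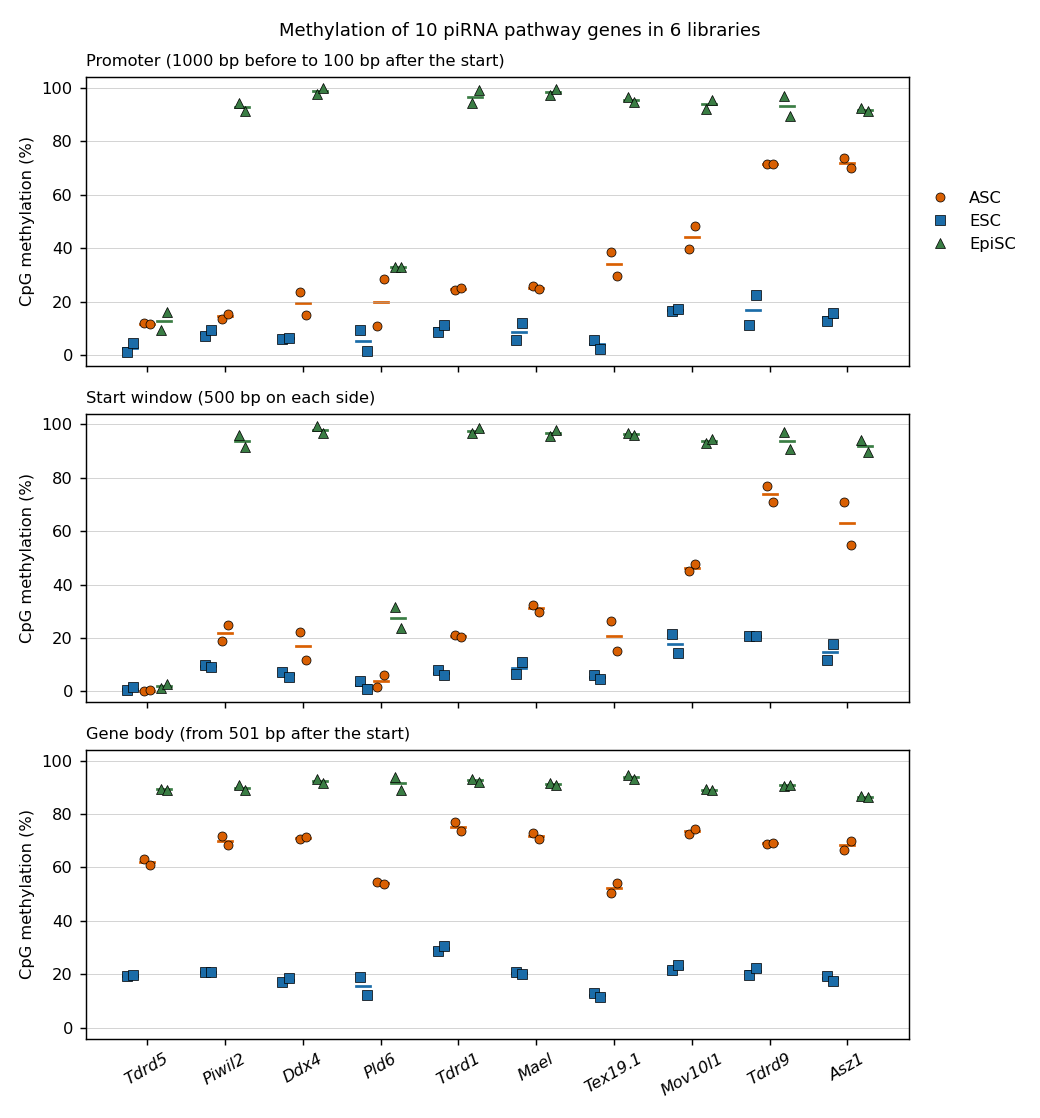
CpG methylation in percent (vertical axes) of the promoter, start window and gene body of each gene (horizontal axis, ordered by the ASC promoter mean). Each point is 1 library of ASCs (circles), ESCs (squares) or EpiSCs (triangles), and the short lines are the means of the 2 libraries. ASC promoters spread from 11.7% to 71.9% as means while ASC gene bodies keep between 52.4% and 75.2%.

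Ordered by their ASC promoter means, the genes ran from Tdrd5 at 11.7% ± 0.259 (SD, n = 2) and Piwil2 at 14.5% ± 1.21 through Ddx4 at 19.4% ± 6.14, Pld6 at 19.8% ± 12.5, Tdrd1 at 24.6% ± 0.558, Mael at 25.2% ± 0.879, Tex19.1 at 34.1% ± 6.20 and Mov10l1 at 44.1% ± 6.03 to Tdrd9 at 71.6% ± 0 and Asz1 at 71.9% ± 2.48. From Piwil2 to Mael each gene differed from the next by less than the larger of the pair of SDs, and so did Tdrd9 and Asz1. Tdrd5 and Piwil2, Mael and Tex19.1, Tex19.1 and Mov10l1, and Mov10l1 and Tdrd9 lay further apart than that, without overlap of their libraries. With 2 libraries an SD is itself uncertain, and the equal ASC levels of Tdrd9 rest on 74 observations each.

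To place ASCs between the other groups, the ASC level was set on a scale where 0 is the ESC mean and 1 the EpiSC mean, for genes that rose by at least 40 points from ESCs to EpiSCs. The 8 such promoters had a median position of 0.256 and ranged from 0.0756 in Piwil2 to 0.744 in Asz1. Over all 3377 such promoters the median was 0.456, and the lower quartile was 0.192. In gene bodies the same scale gave a median of 0.713 for the 10 genes, against 0.630 over all 18127 bodies. Of the 8 promoters with an EpiSC mean of at least 80%, 6 had an ASC mean below 50% (75%), against 36.8% of all 2159 such promoters. These are counts over genes chosen by name, given without a test.

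**Figure D3:**
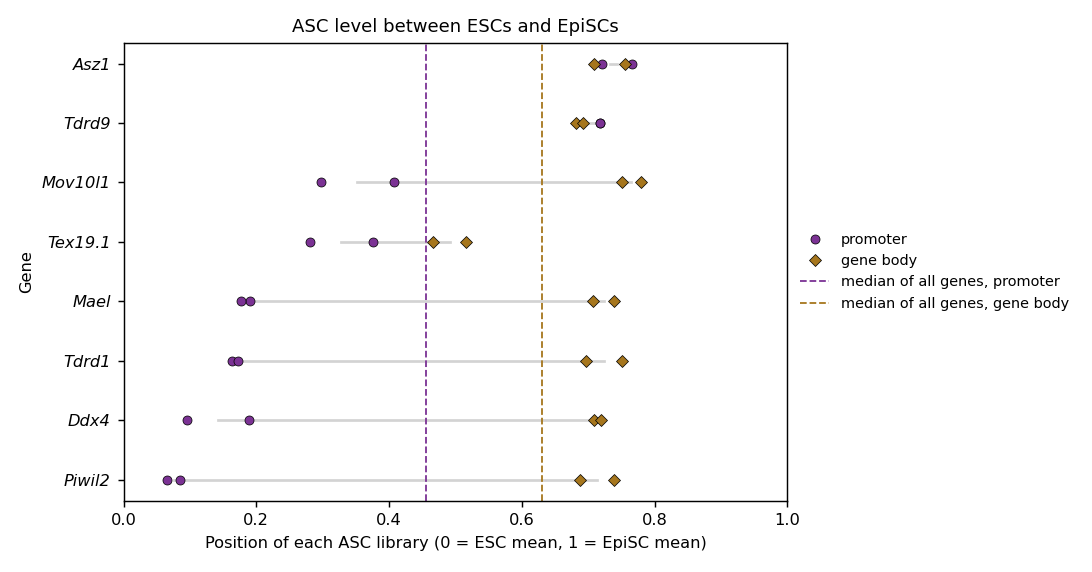
Position of each ASC library between the ESC mean (0) and the EpiSC mean (1) on the horizontal axis, for the 8 genes whose promoter rose by at least 40 points, with promoters as circles, gene bodies as diamonds and a grey line joining their means. Dashed lines mark the medians of all genes, 0.456 for promoters and 0.630 for gene bodies. The promoters of 6 genes lie left of the promoter median in both libraries, and those of Asz1 and Tdrd9 lie beside their gene bodies.

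In the start window several calls differed from those of the promoter. Here 8 genes were lower in ASCs than in EpiSCs, with Asz1 and Pld6 called in addition and Tdrd9 not called, where 21.3% of all 15775 windows tested were, and 4 were higher in ASCs than in ESCs (Asz1, Tdrd9, Mov10l1 and Mael, with Mael in place of Tex19.1), where 14.1% were. In EpiSCs 9 genes were higher than in ESCs, where 27.3% of all windows were. The start window of Pld6 was at 1.62% and 6.01% in ASCs, compared with 4% and 1% in ESCs and 31.7% and 23.6% in EpiSCs. The ASC level was 23.9 points below EpiSCs (adjusted p = 2.54e-04) and 1.32 points from ESCs (adjusted p = 0.886). Without EpiSC replicate 1 the difference from EpiSCs fell to -19.8 points and the call was lost. Asz1 was at 71.1% and 54.7% in ASCs and was called 28.9 points below EpiSCs (adjusted p = 0.00156), which was lost in 4 of 15 alternatives, among them without either EpiSC library. Tex19.1, called higher than ESCs in the promoter, was 15.4 points higher in this window and was not called. The difference was 9.69 points without ASC replicate 1 and 21.1 points, which was called, without ASC replicate 2.

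In their gene bodies the same genes were methylated in ASCs. All 10 were higher in ASCs than in ESCs, by 38.6 to 53.2 points, where 90.7% of all 19143 bodies tested were called higher. All 10 were higher in EpiSCs than in ESCs, where 97.5% were. Only 5 of the 10 (Tex19.1, Pld6, Tdrd5, Tdrd9 and Ddx4) were called lower in ASCs than in EpiSCs, where 73.1% of all bodies were. ASC means of the bodies ran from 52.4% in Tex19.1 to 75.2% in Tdrd1, ESC means from 12.3% to 29.8% and EpiSC means from 86.5% to 93.9%. The other 5 bodies were 15.7 to 19.8 points below EpiSCs, just under the size asked for, with adjusted p-values between 1.21e-11 and 6.00e-08.

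Whether the groups differed more at the promoter than in the body of the same gene was tested with a region by group term on the log-odds scale. For ASCs against EpiSCs the difference was more negative at the promoter in 5 genes, Piwil2 (-3.00 in log-odds, adjusted p = 4.78e-05), Tdrd1 (-3.04, adjusted p = 2.53e-04), Ddx4 (-3.86, adjusted p = 2.61e-04), Mael (-3.74, adjusted p = 1.81e-04) and Mov10l1 (-1.83, adjusted p = 2.73e-04). Over all 14171 genes tested, 9.27% were called in this direction. It was more positive at the promoter in Pld6 (1.43, adjusted p = 0.0257) and Tdrd5 (1.52, adjusted p = 0.0490), where 18.0% of all genes were called in that direction. Both of these calls were lost without ASC replicate 2, without either ESC library and without either EpiSC library. That of Tdrd5 was also lost without ASC replicate 1 and held in 1 of 8 alternatives, and that of Pld6 in 4 of 9. Over all alternatives the value ran from 1.24 to 1.88 in Tdrd5 and from 0.886 to 2.09 in Pld6, and fits without a library called 979 to 1880 genes in this direction, against 2550 with all 6. In Tdrd5 the promoter hardly differed between ASCs and EpiSCs while the body was at 62.0% and 89.2% as means. Asz1 (-0.317, adjusted p = 0.522) and Tdrd9 (-0.172, adjusted p = 0.773) gave no call, and nor did Tex19.1 (-1.06, adjusted p = 0.148). The Tex19.1 body was at 50.4% and 54.3% in ASCs, the lowest ASC body mean among the genes followed here. For ASCs against ESCs only Mov10l1 was called (-0.917, adjusted p = 0.0429), where 1.43% of all genes were called in this direction, and its value lay between -1.04 and -0.789 over all alternatives. The call held in 2 of 9 alternatives. It was lost without any 1 of the 6 libraries, in fits that called few genes or none. It was also lost at a minimum of 20 observations, where 140 of all 16685 genes were called.

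The extent of the low stretch in ASCs was then read in 200 bp bins over 3000 bp on each side of the start, with the 2 libraries of a group pooled. In Mael, EpiSCs exceeded ASCs by at least 40 points in an unbroken run of 800 bp around the largest gap, from -400 to 399. The gap was 83.8 points in the bin just upstream of the start, where ASCs had 15.2%, ESCs 5.26% and EpiSCs 99.0%. The runs around the largest gap were 1000 bp in Piwil2 and Tex19.1, 800 bp in Tdrd1, 600 bp in Ddx4 and 400 bp in Mov10l1. Tex19.1 had its lowest ASC bin away from the start, from 2000 to 2199, where 9.52% of 21 ASC observations were methylated, against 8% in ESCs and 85% in EpiSCs. The run of Ddx4 ended upstream at a bin with 2 EpiSC observations, beyond which ASCs were at 42.9% and EpiSCs at 95% between -600 and -401. Upstream in Mael and Tdrd1 and on both sides in Piwil2 the run likewise ended at a bin with fewer than 10 observations in ASCs or EpiSCs, so these lengths depend on coverage. In Piwil2 none of 34 ASC observations between -400 and -201 was methylated, which allows up to 8.82%, against 93.8% in EpiSCs. This bin, the largest gap of Piwil2, holds 5 CpGs. It had 31 observations in ASC replicate 1 and 3 in ASC replicate 2, so its ASC level rests almost on 1 library.

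Asz1 had a single such bin, from 200 to 399, where ASCs were at 46.2% and EpiSCs at 87.5%. Tdrd9 had none, and its largest gap was 37.5 points in the bin just upstream of the start, where ASCs were at 50%. In Tdrd5 and Pld6 the largest gap lay downstream of the start, which was low in every group. Tdrd5 showed it in the bin from 800 to 999, with 24.1% in ASCs and 1.82% in ESCs against 84.3% in EpiSCs, and Pld6 from 400 to 799, with 2.86% in ASCs, 4.44% in ESCs and 93.3% in EpiSCs in the outer bin. There the low region reached further into the gene in ASCs and ESCs than in EpiSCs. In Pld6 it also reached further upstream, with 21.7% in ASCs and 85.7% in EpiSCs between -600 and -401, and 27.6% and 86.7% between -400 and -201. The bins are described without a test, and the rule of 40 points was chosen after seeing the data.

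**Figure D4:**
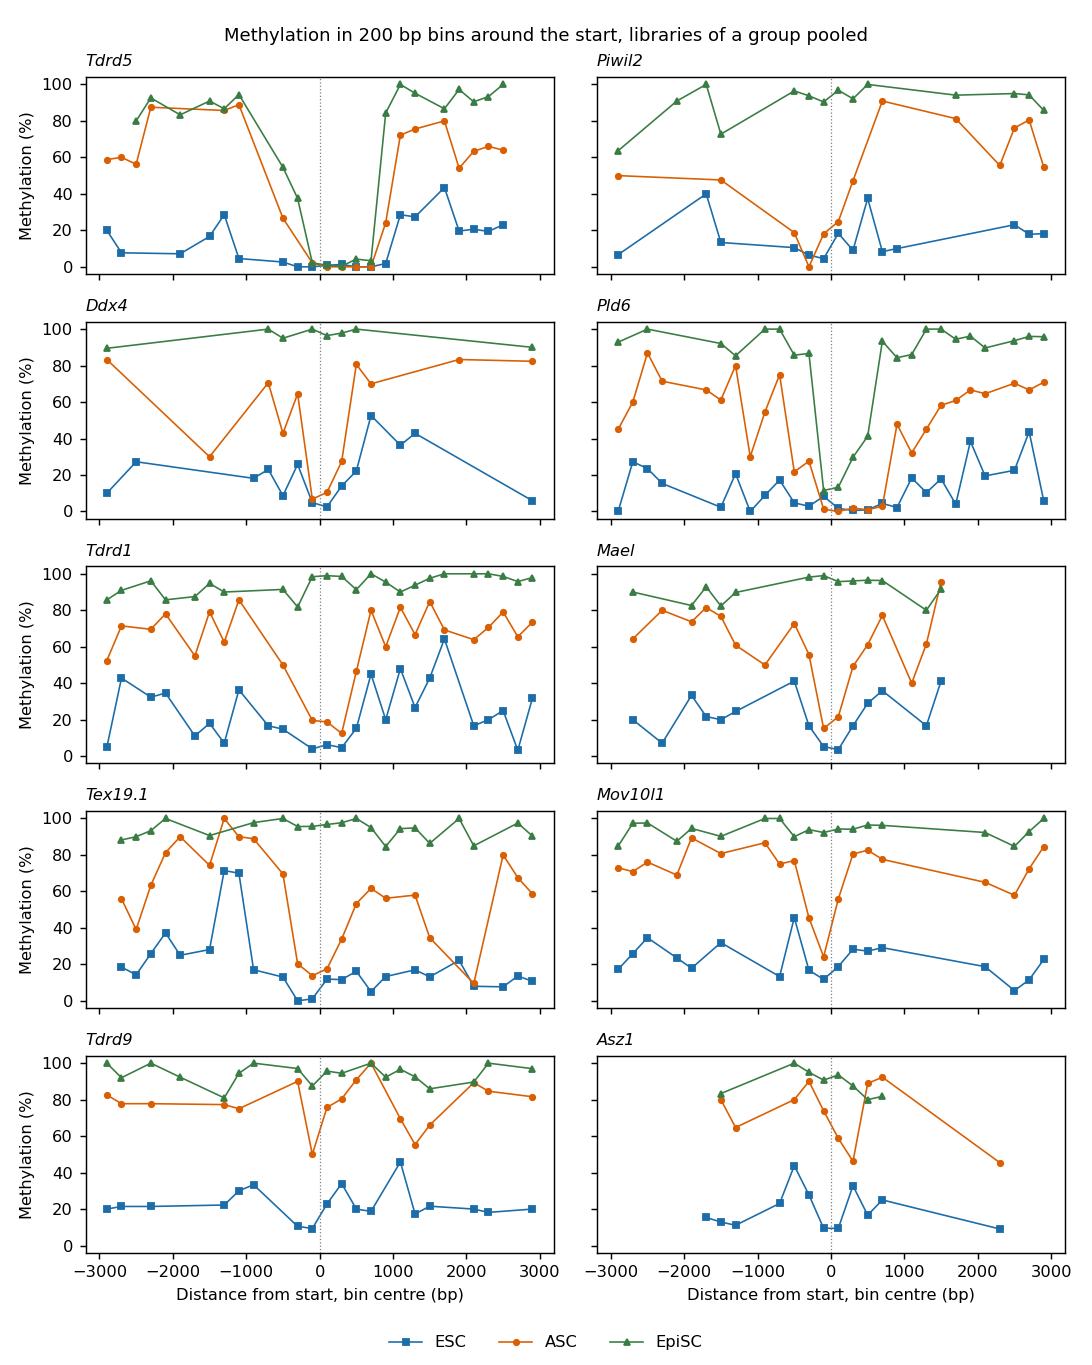
CpG methylation in percent in 200 bp bins (vertical axes) against the distance of the bin centre from the annotated start in bp, for the 10 genes in ASCs (circles), ESCs (squares) and EpiSCs (triangles), libraries of a group pooled and bins with fewer than 10 observations left out. The ASC line dips towards the ESC line at the start of Piwil2, Ddx4, Tdrd1, Mael and Tex19.1 and rises on both sides, falling again in Tex19.1 further downstream, while the EpiSC line stays high there except in Tdrd5 and Pld6.

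Outside the values used above, the start windows were compared in sequence. The 10 windows held between 31 and 86 CpGs, with a median of 51 against 44 over all 21670 start windows, and a median GC content of 58.0% against 55.3%. The letters CACGTG (an E-box, the same on both strands, bound by several helix-loop-helix factors) were present in 8 of the 10 windows, all but Tdrd5 and Tex19.1, against 17.1% of all windows. They occurred in 5 of 17 other piRNA pathway genes (29.4%) and in 6 of 12 other germline genes (50%). The letters GCGGGAA (an E2F-type motif, searched on both strands and not overlapping the former) were present in Ddx4 and Tdrd5, against 15.8% of all windows. This motif was in 0 of 17 other piRNA pathway genes and in 5 of 12 other germline genes (41.7%). In the printed sequences the E-box starts at base 28 in Mael, 222 in Ddx4 and 5 in Mov10l1, counted from 1 at the 5′ end. In RefSeq promoters of 300 bases, 7.15% of 32851 held CACGTG and 4.6% held GCGGGAA. A match is a description of letters and says nothing about binding.

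The CACGTG motif holds a CpG of its own, so its methylation could be read. Over the 11 matches in the 8 windows, 16 of 89 ASC observations were methylated (18.0%), 5 of 116 in ESCs (4.31%) and 100 of 122 in EpiSCs (82.0%). The EpiSC value rests on 10 matches in 7 windows, since the Ddx4 match had no EpiSC read. The Asz1 match had 4 of 6 in ASCs and 9 of 10 in EpiSCs, and the Tdrd9 match further upstream had 4 of 5 in ASCs and 19 of 19 in EpiSCs. The nearer of the Piwil2 matches had 0 of 19 in ASCs, which allows up to 15.8%, against 17 of 20 in EpiSCs, while the other had 4 of 9 in ASCs and 1 of 10 in ESCs. The nearer Tdrd9 match had 1 of 4 in ASCs and 9 of 13 in EpiSCs, and none of 7 EpiSC reads was methylated at the Pld6 match, which allows up to 42.9%. The Mov10l1 match had 1 of 11 in ASCs, in a 200 bp bin with an ASC level of 45.5%, and the Mael match had 1 of 7. With so few reads the single sites are given as counts, without a test against the CpGs around them.

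Other genes of the pathway were read from a list that holds no member. Of 17, 16 promoters reached the minimum, all but Tex15. ASCs were lower than EpiSCs in 13 of the 16, where 24.3% of all promoters were, and higher than ESCs in 9, where 17.3% were. EpiSCs were higher than ESCs in 13, where 37.0% were. The median ASC minus EpiSC difference was -46.7 points. Of those called against EpiSCs, the largest differences were in Tdrd12 (-84.4 points), Pnldc1 (-73.1), Tdrd6 (-64.5), Henmt1 (-60.1), Piwil4 (-56.9) and Tdrkh (-51.1). Pnldc1 is the exonuclease that trims piRNA 3′ ends and Henmt1 the enzyme that then methylates them. The PIWI genes Piwil1, at 46.0% and 41.4% in ASCs, and Piwil4, at 42.9% and 29.3%, were above the Piwil2 level of 13.7% and 15.4%. No promoter difference between groups was called in Tdrd7, Mybl1 or Exd1, and the promoter of Mybl1, a transcription factor of piRNA clusters, was at 1.23% or below in every library.

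Of 12 other germline genes, 11 reached the minimum and all 11 were lower in ASCs than in EpiSCs, at a median of -49.2 points, where 24.3% of all promoters were called lower. Sycp3 and Stra8 are among the 11, and the study names them as genes with a demethylated promoter in ASCs, from these same samples. Their direction is thus not independent evidence. Of the 11, 8 were higher in ASCs than in ESCs, at a median over all 11 of 28.9 points, where 17.3% of all promoters were called higher, and their median ASC mean was 45.9%. Of 8 widely expressed genes 1 was called lower, Actb, and their highest ASC mean was 10.4%. Among all promoters that are not members, those whose 6 levels came closest to the median profile of the 10 genes were Rnf212, Zfp977, Pnldc1, Patl2 and 1700092M07Rik, at Euclidean distances of 5.70, 5.86, 6.32, 6.42 and 7.15 points over the 6 libraries. Rnf212, a gene of meiotic recombination, was at 25.3% and 28.7% in the ASC libraries, 5.24% and 8.87% in the ESC libraries and 96.6% and 96.7% in the EpiSC libraries.

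The 6 promoters of Piwil2, Tdrd1, Ddx4, Mael, Mov10l1 and Tex19.1 were called lower in ASCs than in EpiSCs under every alternative in which they reached the minimum, with differences between -83.8 and -45.6 points. Tdrd9 was the member of the 7 that was not. Over all promoters, the share called in this comparison, in either direction, ran from 9.67% (40 points asked for) to 28.3% (minimum of 20 observations). How many of all promoters were called under every alternative was not counted, so this stability is not shown to be particular to these genes.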

How the data were processed

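CpG methylation was measured in 6 libraries, 2 each of ASCs, ESCs and EpiSCs, made by post-bisulfite adaptor tagging (PBAT). According to the study's methods and the submitters' processing notes, the authors trimmed reads with Trim Galore, aligned them to GRCm38 (mm10) with Bismark 0.16.3 in PBAT mode, removed duplicates, and merged both strands of each CpG with MethPipe (version not given in the sources used here). For each CpG the deposited tables hold a methylation fraction between 0 and 1, computed by the authors. Beside it the authors deposited the coverage, an unnormalized count of reads.

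Methylated reads were recovered as the fraction times the coverage, which nowhere missed a whole read by more than 0.000115. No listed CpG on chromosomes 1 to 19 and X lay off a CpG of the GRCm38.p6 sequence. Reads were summed per region around 1 start per protein-coding gene of GENCODE M21, ranked by annotation tags. The minimum was 40 observations per region in each library, as in the study. At that depth single libraries give coarse levels, so replicate spread entered every main test. A quasi-binomial model with a term for group was fitted to all 6 libraries, with the dispersion moderated by squeezeVar of limma 3.58.1 (R 4.3.3), a two-sided F test, and Benjamini-Hochberg adjustment over all genes. Adjusted p-values in the report come from this model. The promoter against the body was tested with terms for library, region, and region by group. The code was tested on simulated data. Levels, profiles and motifs were computed in Python with numpy and pandas. The genes and lists were chosen with earlier results of these data known. The text names all 10 members, of the other pathway genes at most the 6 called with the largest ASC to EpiSC difference, and the 5 promoters nearest the members' median profile. Sycp3 and Stra8 are named because the study names them. Further values of Piwil1, Tdrd7, Mybl1, Exd1, Tex15 and Actb were chosen after they were seen. The replicate numbers were checked as a pairing and did not pair the libraries. Alternatives were other minimums, tests, thresholds and starts, thinning to the shallowest library, a replicate block, leaving out each library, and, chosen after seeing the data, a dispersion not below 1.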

Additional observations from a re-analysis of the deposited data

How the results depend on the processing

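Of 153 counts of members called under an alternative, 137 stayed within 1.5 times the reported count, 15 fell below it and 1 rose above it. With a minimum of 100 observations fewer members could be tested in promoters (4 of 10): 3 were then called lower in ASCs than in EpiSCs, 2 higher in ASCs than in ESCs and 4 higher in EpiSCs than in ESCs, with no call lost among those tested. Of all 7987 promoters tested at that minimum, 13.4%, 4.38% and 19.6% were called in these comparisons, in either direction. In the test of the promoter against the gene body, 3 of 3 testable members were then called for ASCs against EpiSCs. The difference was more negative at the promoter in Mael and Mov10l1 and more positive in Pld6. Of all 7768 genes, 23% were called in either direction. Asking for 40 points left 2 promoters (Asz1 and Tdrd9) and 2 start windows higher in ASCs than in ESCs, and 1 gene body (Tex19.1) lower in ASCs than in EpiSCs. Over all genes these comparisons then called 8.73% of promoters, 9.03% of start windows and 11.7% of gene bodies. limma on M values also left 2 start windows higher in ASCs than in ESCs, without Mael and Mov10l1, where 11.5% of all start windows were called. For the promoter against the gene body between ASCs and ESCs, 0 members were called at a minimum of 20 observations and 2 with group in place of library, and the count was 0 without any 1 of the libraries, in fits that called 0 to 14 of all genes. Over all genes that test called 0.839% at a minimum of 20 observations, 3.77% with group in place of library and 1.52% at the main setting, in either direction. At the main setting of that test, limma-moderated, only Mov10l1 passed, and the causes of these changes were not tested.

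Leaving out 1 library at a time changed the calls of several members. For ASCs against EpiSCs these were Tdrd9, Asz1 and Pld6 in the promoter and start window, and Mael and Piwil2 in the body. Against ESCs they were Pld6 in the promoter and Tex19.1 in the start window. Between EpiSCs and ESCs the Pld6 promoter changed. In the test of the promoter against the body, Pld6 and Tdrd5 changed against EpiSCs and Mov10l1 against ESCs. Over all alternatives the ASC minus EpiSC promoter difference ran from -25.2 to -17.7 points in Tdrd9, from -21.6 to -18.1 in Asz1 and from -21.9 to -4.28 in Pld6. The lone library of a group was then assumed to vary like the other groups. Values that were never called changed sign in some of these fits: Tdrd5 in the promoter, between -4.38 and 2.25 points for ASCs against EpiSCs, Pld6 in the start window, between -0.877 and 3.51 points for ASCs against ESCs, and the promoter against the body for Tdrd9 (-0.948 to 0.330 in log-odds, against EpiSCs), Tdrd5 (-0.886 to 0.204, against ESCs) and Pld6 (-1.13 to 0.331, against ESCs).

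The replicate numbers mark no pairing in the labels, and deviations of same-numbered libraries correlated between -0.00033 and 0.00125 over 14429 promoters. With a replicate block 6 promoters (without Tdrd9) and 7 start windows (without Asz1) were below EpiSCs in ASCs, and the block changed no other count of members called. Over all genes the block called 3347 of 14429 promoters and 3190 of 15775 start windows lower in ASCs than in EpiSCs. Fisher's exact test on summed reads and, chosen after seeing the data, a dispersion not below 1 gave the reported counts in all 9 region comparisons. Depth limits the single CpGs in some windows: none of the 38 CpGs of the printed Ddx4 window had 5 reads in every group, whereas all 20 of the Mov10l1 window did.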
